A study of Mus musculus with 2 samples.

Results

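Respiratory complexes II to V are the enzymes of the inner mitochondrial membrane that follow complex I. Complex II oxidises succinate, complex III passes electrons from ubiquinol to cytochrome c, complex IV (cytochrome c oxidase) hands them to oxygen, and complex V (ATP synthase) uses the resulting proton gradient to make ATP. Skeletal muscle relies on this chain during sustained contraction, and several small subunits of complex IV exist in a heart and muscle isoform beside a ubiquitous one. The genes described here are those whose name in the scanner files is Sdha to Sdhd, Cyc1 or Cycs, or starts with Uqcr, Uqcc, Atp5, Cox4 to Cox8 or Cox10 to Cox19, with control spots left out. This rule found 60 of 37061 gene names, represented by 103 probes in 112 spots. Of the 60, 4 belong to complex II, 9 are complex III subunits and 3 its assembly factors, 1 is cytochrome c, 17 are complex IV subunits or isoforms and 8 its assembly factors, and 15 are complex V subunits. The other 3, Atp5s, Atp5sl and Atp5c1-ps, were matched by name only. RefSeq of GRCm38.p6 lists Atp5s and Atp5sl as Dmac2l and Dmac2, and Atp5c1-ps is a pseudogene. Names are kept as in the files, and the same RefSeq release lists Atp5f1 as Atp5pb.

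The study asked how exosomes from pancreatic cancer cells alter gene expression in muscle cells. Both samples were C2C12 cells, a mouse myoblast line that was brought to fuse into myotubes in DMEM with 2% horse serum. The KPC-exo culture received 4 µg of exosomes, small secreted vesicles, for 24 h from a cancer line. That line was derived from a pancreatic tumour of mice with the alleles KrasLSL-G12D/+ and Trp53LSL-R172H/+ and with Pdx1-Cre, which recombines such alleles in the pancreatic lineage. The MPDC-exo culture, the control, was given exosomes from MPDC, a ductal epithelial line of mouse pancreas, for 24 h, at a dose not given in the sources used here. No culture without exosomes was analysed here, so each difference lies between cells given exosomes of 2 sources. Each culture had 1 array and there was no replicate, which leaves nothing to test and only technical error to set beside a difference. An array signal cannot tell fewer cells of a type from less RNA per cell.

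Signals are given as log2 of the processed spot signal minus the 75th percentile of the array, so that 0 is the signal exceeded by 25% of probes. That percentile was 639 units on the KPC-exo array and 380 units on the MPDC-exo array. The median difference (KPC-exo minus MPDC-exo) of all 16908 measured genes was 0.06, and centring on 7 spike-in probes instead added 1.00 to every difference. All signs below therefore hold for percentile centring, while positions relative to the all-gene median are the same under both. All 8 myotube markers were measured, with differences from -0.44 (Ckm) to 0.34 (Tnnt3), a median of -0.14 and a log2 summed signal of 8.39 on the KPC-exo array and 8.43 on the MPDC-exo array. Of 5 markers of undifferentiated or cycling myoblasts, 4 were measured, with differences of -0.41 to -0.28 and summed signals of 3.57 on the KPC-exo array and 3.93 on the MPDC-exo array, and neither array had Myf5 well above background. Of 6 epithelial markers only Krt19 was measured, at -2.34 on the KPC-exo array and -2.47 on the MPDC-exo array. Summed over all 6, of which 5 were not well above background, the signals were -1.48 on the KPC-exo array and -1.79 on the MPDC-exo array. The 3 fibroblast markers were measured, with differences of 0.22 to 0.37 and sums of 6.96 on the KPC-exo array and 6.63 on the MPDC-exo array. The part of these markers in the values below was not tested.

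The mRNAs of complexes II to V lay close together on both arrays. Of the 60 genes, 58 (96.7%) were measured, that is, well above background on both arrays in their brightest probe. The exceptions were Cox7b2, an isoform of subunit 7b, and Cox8c, the testis isoform of subunit 8, which neither array measured well above background. The 58 differences had a median of 0.02 and 5th and 95th percentiles of -0.25 and 0.36, against -0.49 and 0.52 over all measured genes, and 50 of them lay within 0.3 of 0. Against the all-gene median 25 were higher and 33 lower. In the brightest 25% of measured genes, where most members lay, the median was 0.01. The same percentiles there were -0.35 and 0.37. Across the 58 genes the signals of both arrays correlated at r = 0.996, a description over genes of 2 arrays that share platform and slide.

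By percentile centring 0 members had a KPC-exo signal 1.5-fold or more above the MPDC-exo signal, and 1, Cox17, had one 1.5-fold or more below it. Over all measured genes 7.38% passed 1.5-fold in either direction, 3.66% higher and 3.71% lower. Dimmer genes make up most of these, whereas 46 of the 58 members lay among the brightest 25% of measured genes. In that brightest class 1.63% of genes passed, 0.662% higher and 0.97% lower. At a smaller limit, a log2 difference of 0.32, 4 members were higher (Sdhc, Uqcc3, Cox4i2 and Uqcrc2) and 3 lower (Cox17, Cox6c and Atp5g3), 12.1% of the 58. Over all measured genes 25.4% passed that limit, 15.3% higher and 10.2% lower, and in the brightest class 13.6% passed it, 7.17% higher and 6.43% lower. Among the 46 bright members 2 were higher and 3 lower, 10.9%, which is near the share of the brightest class as a whole. At 2-fold 0 members passed, against 1.92% of all measured genes, 0.727% higher and 1.19% lower.

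**Figure D1:**
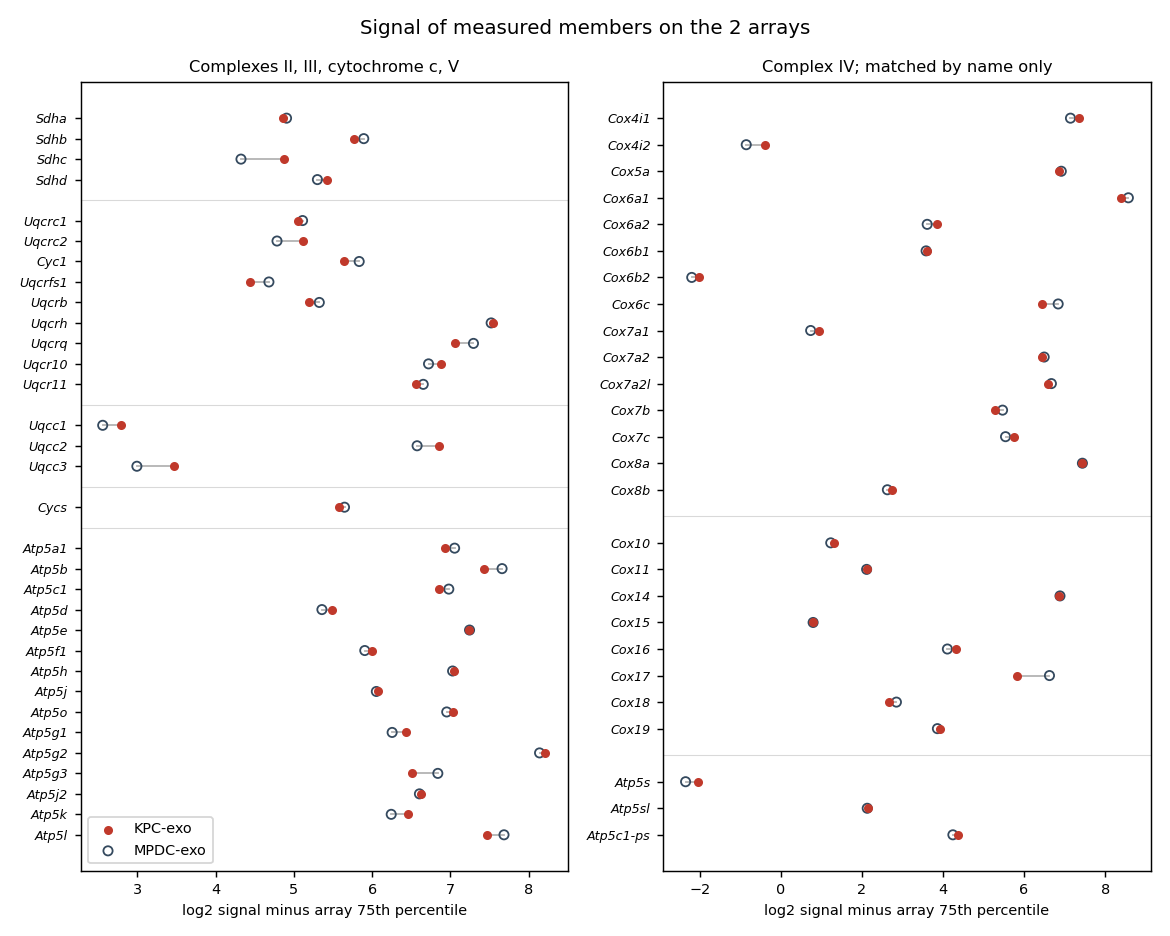
Log2 signal minus the array's 75th percentile for the 58 measured members, 1 row per gene, filled points for the KPC-exo array and open points for the MPDC-exo array, joined by a line. The paired points overlap or nearly touch for most genes, and the longest line is that of Cox17 (5.82 on KPC-exo, 6.63 on MPDC-exo), followed by Sdhc (4.88 on KPC-exo, 4.32 on MPDC-exo).

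The error that can be read from the files is technical. Atp5g2, which encodes the c ring of ATP synthase, is the member whose probe was spotted 10 times. Its spots ran from 8.11 to 8.25 with a median of 8.23 on the KPC-exo array (SD 0.04) and from 8.08 to 8.17 with a median of 8.14 on the MPDC-exo array (SD 0.03). Of the 10 KPC-exo spots 9 lay above every MPDC-exo spot, and the mean difference was 0.08. The scanner software's own error, combined over both arrays, was between 0.20 and 0.26 for the difference of each member, and 12 members were higher and 7 lower by more than it. Over all measured genes 26.5% were higher and 15.8% lower by more than their own software error, and in the brightest class 18.5% were higher and 15.5% lower. As a share of 58, these 19 members are thus fewer than among all measured genes. That share is close to the share of the brightest class, where 46 of the 58 lay. Different probes of 1 gene disagreed by more than spots did: the pooled SD of the difference was 0.28 over the members and 0.36 over the 5767 genes with at least 2 measured probes. Of the 25 members with at least 2 measured probes, 13 had probes of opposite sign, and in 9 of these the probes spanned more than 0.36. None of these errors includes variation between cultures.

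Complex II is built wholly from nuclear genes, 2 subunits that carry the catalysis and 2 that anchor it in the membrane. Sdhc, an anchor, had a log2 signal of 4.88 on the KPC-exo array and 4.32 on the MPDC-exo array. Its difference of 0.56, a 1.47-fold higher signal, was the largest positive one among the members, rests on 1 probe and ranged from 0.50 to 0.63 over the alternatives other than spike-in centring. Sdhd, the other anchor, had 5.42 on the KPC-exo array and 5.30 on the MPDC-exo array, a difference of 0.12. The differences of the anchors were apart by more than the software error of either. Sdha, the flavoprotein that oxidises succinate, had 4.86 on the KPC-exo array and 4.91 on the MPDC-exo array, a difference of -0.05, while its 2 other measured probes gave 0.28 and 0.51. Sdhb, the iron-sulphur subunit, had 5.77 on the KPC-exo array and 5.89 on the MPDC-exo array, a difference of -0.13 that the second probe, at 0.03, did not share. The median of the 4 genes was 0.04, close to that of all genes, and 0.18 when all measured probes of a gene were averaged.

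In complex III the median of the structural subunits and that of the Uqcc assembly factors stood on opposite sides of the all-gene median. With no filter on dim probes the subunit median was above it as well, by 0.05. The 9 subunits had a median difference of -0.09, with 7 below and 2 above the all-gene median. The 3 assembly factors, Uqcc1 to Uqcc3, had a median of 0.28 and were all above it. No difference in either group reached 1.5-fold, and the contrast between the groups was not tested.

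Among the subunits, the Rieske iron-sulphur protein Uqcrfs1, which takes electrons from ubiquinol, had 4.44 on the KPC-exo array and 4.68 on the MPDC-exo array, a difference of -0.24. Uqcrq, a small supernumerary subunit, had 7.06 on the KPC-exo array and 7.29 on the MPDC-exo array, a difference of -0.23. Uqcrb, another supernumerary subunit, had 5.19 on the KPC-exo array and 5.32 on the MPDC-exo array, and its probes gave -0.14 and -0.16. These 3 subunits had lower signals on the KPC-exo array in every measured probe. Uqcrc2, core protein 2, went the other way, with 5.12 on the KPC-exo array and 4.78 on the MPDC-exo array, a difference of 0.34. Its partner Uqcrc1, core protein 1, had 5.06 on the KPC-exo array and 5.11 on the MPDC-exo array, a difference of -0.05. The core proteins, which sit together in the matrix arm of the complex, therefore had differences of opposite sign on these arrays. That of Uqcrc1 was smaller than its software error of 0.20, so its sign is uncertain. Uqcrh, the hinge protein that faces cytochrome c, and Uqcr11 had differences of 0.03 and -0.09. Uqcr10 had 6.88 on the KPC-exo array and 6.72 on the MPDC-exo array, but its probes disagreed at 0.16 and -0.22.

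The assembly factors act on cytochrome b, the mitochondrially encoded subunit of complex III. Uqcc3 had 3.46 on the KPC-exo array and 2.99 on the MPDC-exo array, a difference of 0.47, or 1.39-fold higher, from 1 probe. Uqcc2 had 6.86 on the KPC-exo array and 6.57 on the MPDC-exo array, a difference of 0.28, also from 1 probe. Uqcc1 had 2.79 on the KPC-exo array and 2.56 on the MPDC-exo array, a difference of 0.23, with its 3 measured probes between 0.12 and 0.47. All 5 measured probes of the 3 genes thus pointed the same way. The group median relative to all genes stayed between 0.22 and 0.43 over the alternatives, and that of the subunits between -0.15 and 0.05.

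The nuclear-encoded heme protein of complex III is a case where the probe decides the sign. Cyc1 encodes cytochrome c1, which donates electrons to cytochrome c, and its 2 probes gave different signs. The sequences are shown because they show that the probes are distinct; bases 16 to 45 of each 60-base probe are printed, and capitals mark the hexamer AATAAA, the letters of the common polyadenylation signal.

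Cyc1 brighter probe, without a position in the files: tcagtgtgggAATAAAttaagtttctcaac
Cyc1 other probe, mm9 chr15:76175938-76175997, plus strand: ccttcgctgggcatcagaaccagagcatga

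The brighter probe had 5.63 on the KPC-exo array and 5.83 on the MPDC-exo array, a difference of -0.20, and its accession did not match a RefSeq gene. The other probe, which matched, had 5.57 on the KPC-exo array and 5.15 on the MPDC-exo array, a difference of 0.42. The second lies on the KPC-exo side by about as much as the largest differences of the complex. Annotation of the mm9 build was not used here, so exon and UTR positions are not given. Cycs, the mobile carrier cytochrome c that links complexes III and IV, had 5.57 on the KPC-exo array and 5.65 on the MPDC-exo array, a difference of -0.07, and its second probe gave -0.13. Its testis counterpart Cyct was not well above background with either treatment.

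**Figure D2:**
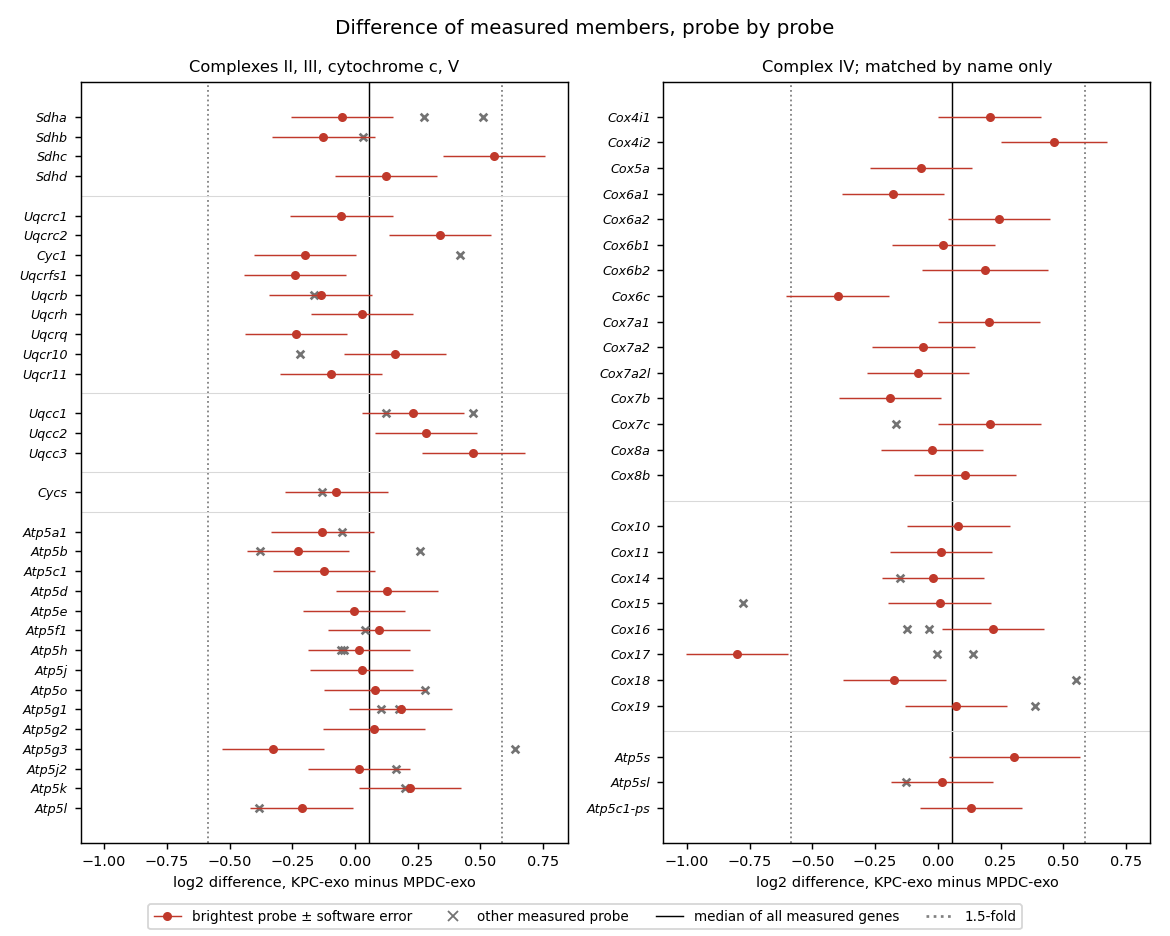
Log2 difference, KPC-exo minus MPDC-exo, for each measured member, with the brightest probe as a point with the scanner software's error as a bar and other measured probes as crosses; the solid line marks the all-gene median (0.06) and dotted lines mark 1.5-fold. By percentile centring the point of Cox17 alone passes a dotted line (-0.80), and its crosses lie at 0.00 and 0.14.

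Complex IV subunits had a median difference of 0.02 over the 15 measured of 17, with 7 above and 8 below the all-gene median. Cox6c had 6.44 on the KPC-exo array and 6.84 on the MPDC-exo array. Its difference of -0.40, a 1.32-fold lower signal, was the lowest of the subunits and stayed between -0.45 and -0.30 over the alternatives other than spike-in centring. Cox7b had 5.28 on the KPC-exo array and 5.47 on the MPDC-exo array, a difference of -0.19, and its isoform Cox7b2 was not well above background. Cox5a had 6.85 on the KPC-exo array and 6.92 on the MPDC-exo array, a difference of -0.07. Cox7a2l, a homologue of subunit 7a that joins complexes III and IV into supercomplexes, had 6.59 on the KPC-exo array and 6.67 on the MPDC-exo array, a difference of -0.08. Cox7c had 5.75 on the KPC-exo array and 5.54 on the MPDC-exo array, but its probes gave 0.21 and -0.17.

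The isoform pairs ask whether muscle-type and ubiquitous forms of a subunit differed between the cultures in the same way. The sequences of the subunit 6a pair are shown because this pair had the largest contrast with percentile centring, though not with quantile normalization or in the deposited value table; they share no run longer than 4 bases over the whole probes. Both lie on the minus strand.

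Cox6a2 probe, mm9 chr7:135349160-135349219: ggccttctgcacaccggctctgagagcccc
Cox6a1 probe, mm9 chr5:115795726-115795785: tttggatgctaagctcgtgtctcctttcct

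Cox6a2, the heart and muscle isoform, had 3.85 on the KPC-exo array and 3.61 on the MPDC-exo array, a difference of 0.24. Cox6a1, the ubiquitous isoform, had 8.39 on the KPC-exo array and 8.57 on the MPDC-exo array, a difference of -0.18. The muscle isoform's difference was thus 0.42 above that of the ubiquitous one, a 1.34-fold change in their ratio, with a software error of 0.29. That contrast was 0.06 with quantile normalization and 0.05 in the deposited value table, where the difference of Cox6a1 became 0.13 and 0.14. The Cox6a1 probe also shares a run of 26 bases with another probe of the array, which is named only by a clone.

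The other muscle isoforms leaned the same way, by less with percentile centring, and so did the non-muscle pairs described below. Cox7a1, the muscle form of subunit 7a, had 0.94 on the KPC-exo array and 0.73 on the MPDC-exo array, a difference of 0.20. Cox7a2, its ubiquitous form, had 6.44 on the KPC-exo array and 6.50 on the MPDC-exo array, a difference of -0.06, which puts the contrast at 0.26. Over the alternatives it lay between 0.16 and 0.29, and with quantile normalization (0.17) it was above that of subunit 6a. Cox8b, the muscle form of subunit 8, had 2.73 on the KPC-exo array and 2.63 on the MPDC-exo array, a difference of 0.11. Cox8a, its ubiquitous form, had 7.42 on the KPC-exo array and 7.44 on the MPDC-exo array, a difference of -0.02, and the contrast of 0.13 became 0.01 with quantile normalization and 0.00 in the deposited value table. Both contrasts were smaller than their software error of 0.29.

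The remaining pairs hold no muscle form. By percentile centring their contrasts had the same sign and a size like those of subunits 7a and 8. Their less widespread isoform was dim, and in all 5 pairs the restricted form had the lower signal. Cox4i2, the isoform of subunit 4 known from lung, had -0.39 on the KPC-exo array and -0.86 on the MPDC-exo array, a difference of 0.46. Cox4i1, the ubiquitous form, had 7.35 on the KPC-exo array and 7.14 on the MPDC-exo array, a difference of 0.21. The contrast of 0.26 became 0.04 with normexp background correction. Cox6b2, the testis form of subunit 6b, had -2.01 on the KPC-exo array and -2.20 on the MPDC-exo array, a difference of 0.19. Cox6b1, its ubiquitous form, had 3.60 on the KPC-exo array and 3.58 on the MPDC-exo array, a difference of 0.02, and the contrast of 0.17 became -0.12 with normexp. The isoforms belong to the members by name, but the 5 contrasts between them were added after the values were seen, and they describe 2 arrays.

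**Figure D3:**
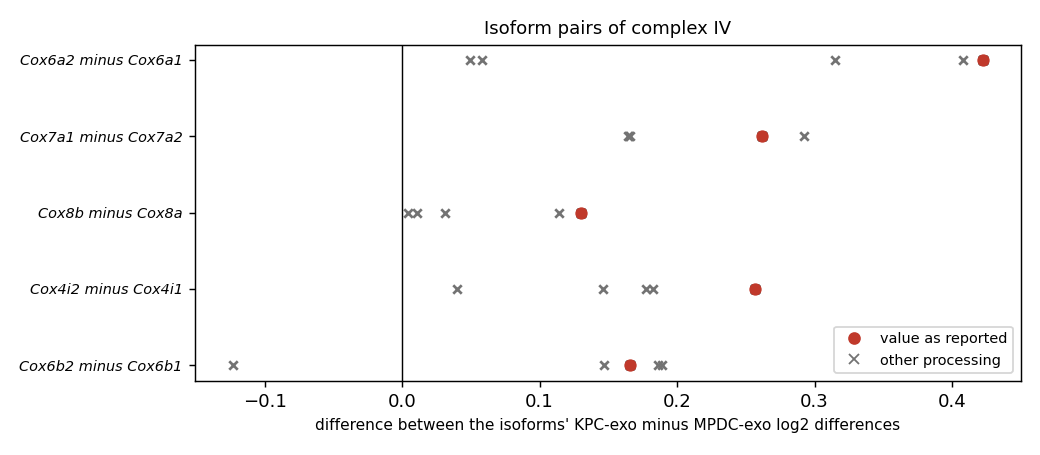
Difference between the log2 differences (KPC-exo minus MPDC-exo) of isoforms of 5 complex IV subunits, the muscle, testis or restricted form minus the ubiquitous one, as reported (points) and with other processing (crosses). All points lie above 0, the subunit 6a contrast runs from 0.05 to 0.42, and the subunit 6b contrast crosses 0 with normexp (-0.12).

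The complex IV assembly factors had a median difference of 0.01 over 8 genes, 3 above and 5 below the all-gene median, and they hold the only member past 1.5-fold. Cox17 is the copper chaperone of the intermembrane space that hands copper on for the metal centres of the enzyme. Its 3 measured probes lie at separate positions of chromosome 16 and did not agree, so their bases 16 to 45 are shown; all are on the plus strand.

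Cox17 brightest probe, mm9 chr16:38353313-38353372: ccggcccgcacggcttggcactatcgcgcc
Cox17 probe across an intron, mm9 chr16:38349405-38352760: cctactttgtgaatgaataatccttgaaga
Cox17 upstream probe, mm9 chr16:38347185-38347244: cggccgctagccctgccccgcccgaggctc

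The brightest probe had 5.82 on the KPC-exo array and 6.63 on the MPDC-exo array, a difference of -0.80, or 1.74-fold lower, and 0.20 when centred on spike-in probes. Its accession matched no RefSeq gene, and it is the brightest by the mean of both arrays, not on the KPC-exo array alone. The probe across an intron, whose accession matched Cox17, had 6.07 on both arrays, a difference of 0.00. The upstream probe, also matched, had 4.10 on the KPC-exo array and 3.96 on the MPDC-exo array, a difference of 0.14. The lower signal was thus seen in 1 of 3 probes, and averaging them gave -0.22. Base composition moved with this result: the brightest probe is 78.3% G or C, and the 102 measured probes of the array with at least 70% had a median difference of -0.25, against 0.04 over all 24962 measured probes. The upstream probe, at 71.7%, is also in that class and had a difference of 0.14, while the probe across an intron is at 35.0%. The part of base composition in the Cox17 value was not tested.

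The other assembly factors lay between -0.17 and 0.22. Cox10 and Cox15, which make heme A, had differences of 0.08 and 0.01. Cox15 had 0.80 on the KPC-exo array and 0.79 on the MPDC-exo array in its brighter probe, while its dimmer probe had -3.28 on the KPC-exo array and -2.51 on the MPDC-exo array, a difference of -0.78. Cox18, which inserts subunit 2 into the membrane, had 2.68 on the KPC-exo array and 2.85 on the MPDC-exo array, a difference of -0.17. Its second probe, across an intron, gave 0.55. For Cox15 and Cox18 the sign or size therefore depends on the probe, as for Cox17. Cox11 and Cox19, which act in copper delivery, had differences of 0.01 and 0.07, and the second probe of Cox19 gave 0.39. Cox14, needed for assembly of subunit 1, had a difference of -0.02. Cox16 had 4.33 on the KPC-exo array and 4.11 on the MPDC-exo array, a difference of 0.22, with 2 other probes at -0.04 and -0.12. A further Cox16 probe was well above background only with KPC-exo. It had -3.44 on the KPC-exo array and -5.14 on the MPDC-exo array, and the software error of the difference was 0.90.

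Complex V subunits had a median difference of 0.02 over 15 genes, with 6 above and 9 below the all-gene median, and none passed 1.5-fold. The F1 head, which carries the catalytic sites, had the lowest median of its parts, -0.12 over 5 genes, with 4 below the all-gene median. Atp5b, the catalytic beta subunit, had 7.43 on the KPC-exo array and 7.66 on the MPDC-exo array, a difference of -0.23, but its 3 probes ran from -0.38 to 0.26. Atp5a1, the alpha subunit, had 6.92 on the KPC-exo array and 7.05 on the MPDC-exo array, with probes at -0.13 and -0.05. Atp5c1, the gamma subunit of the central stalk, had 6.86 on the KPC-exo array and 6.98 on the MPDC-exo array, a difference of -0.12. Alpha, beta and gamma thus had slightly lower signals on the KPC-exo array in their brightest probes, by 0.12 to 0.23, about the software error or less. With quantile normalization the differences of Atp5b and Atp5a1 were smaller, at -0.12 and -0.07. In the deposited value table they were -0.12 and -0.06. The small subunits delta (Atp5d) and epsilon (Atp5e) had differences of 0.13 and 0.00. The pseudogene Atp5c1-ps, whose sequence resembles Atp5c1 and whose signal is uncertain for that reason, had a difference of 0.13.

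The peripheral stalk, which holds the head still against the rotor, had the narrowest range of any group by its brightest probes. Its 4 genes Atp5f1, Atp5h, Atp5j and Atp5o had differences of 0.10, 0.02, 0.03 and 0.08. A second Atp5o probe gave 0.28, and 3 probes of Atp5h lay between -0.06 and 0.02. A further Atp5f1 probe was not well above background with KPC-exo but was with MPDC-exo. It had -3.94 on the KPC-exo array and -3.49 on the MPDC-exo array, a difference of -0.45 within its software error of 0.47.

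The c ring, the proton-driven rotor, is encoded by 3 genes whose mature proteins are identical and whose signals differed in direction. Atp5g1 had 6.44 on the KPC-exo array and 6.25 on the MPDC-exo array, a difference of 0.18, and its 3 probes lay between 0.11 and 0.18. Atp5g2, described above, had a difference of 0.08, which became 0.29 with quantile normalization and 0.30 in the deposited value table. Atp5g3 had 6.51 on the KPC-exo array and 6.84 on the MPDC-exo array, a difference of -0.33. The Atp5g3 probes are shown because they contradict each other; both lie on the minus strand of chromosome 2, within 1 kilobase, and bases 16 to 45 are printed.

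Atp5g3 brighter probe, mm9 chr2:73746519-73746578: ctggtgtcatggaaatatatgttatttcca
Atp5g3 dimmer probe, mm9 chr2:73746848-73746907: ataggagatagcacccccatgagacttgca

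The dimmer probe, without a RefSeq match, had -0.50 on the KPC-exo array and -1.14 on the MPDC-exo array, a difference of 0.64. Averaging both probes turned the difference of Atp5g3 to 0.16. With the brighter probe alone it stayed between -0.38 and -0.26 over the alternatives other than spike-in centring and averaging.

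Subunits e, f and g lie in the membrane and take part in joining ATP synthase into dimers. Atp5k, subunit e, had 6.46 on the KPC-exo array and 6.24 on the MPDC-exo array, and its probes, which share a run of 49 bases, gave 0.22 and 0.20. Atp5l, subunit g, had 7.47 on the KPC-exo array and 7.68 on the MPDC-exo array, with probes at -0.21 and -0.38. The brighter Atp5l probe was at -0.09 with quantile normalization and in the deposited value table. Atp5j2, subunit f, had 6.62 on the KPC-exo array and 6.60 on the MPDC-exo array, with probes at 0.02 and 0.16. Subunits e and g, which bind each other, had opposite signs in all of their probes. Of the genes matched by name only, Atp5s had -2.05 on the KPC-exo array and -2.35 on the MPDC-exo array, a difference of 0.30 that became 0.02 with normexp, and Atp5sl had a difference of 0.02.

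**Figure D4:**
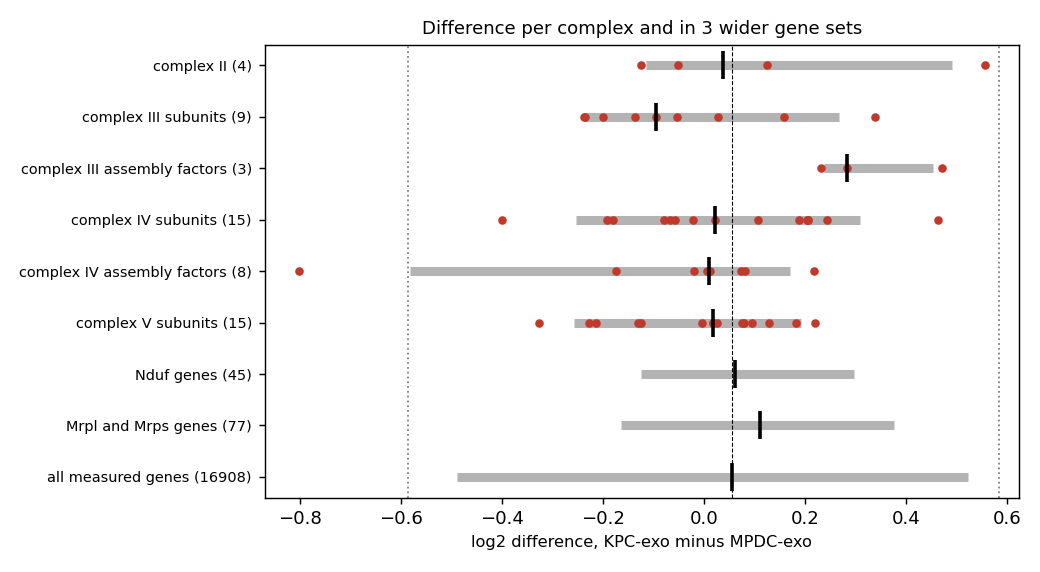
Log2 difference, KPC-exo minus MPDC-exo, per group, with the number of measured genes in brackets: grey bars span the 5th to 95th percentile, black ticks mark medians, red points are single genes, the dashed line is the all-gene median and dotted lines mark 1.5-fold. The complex III assembly factors have the highest median (0.28) and the complex III subunits the lowest (-0.09), above and below the dashed line at 0.06, and only the bar of the complex IV assembly factors, which hold Cox17, reaches beyond that of all genes (-0.49 to 0.52).

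Set beside the rest of the mitochondrial machinery, the 58 members (median 0.02) were near the genes whose name starts with Nduf, most of them of complex I. Of these, 45 of 46 were measured, with a median of 0.06 and a range of -0.29 to 0.39. They include Ndufa4, which is also among the companion genes below. The Mrpl and Mrps genes of the mitochondrial ribosome, 77 of 78 measured, had a median of 0.11. No Nduf gene and 1 ribosomal gene passed 1.5-fold, against 7.38% of all measured genes and 1.63% of the brightest class. Differences between these medians were not tested.

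A list of 37 companion genes with other names held assembly factors of complexes II to V together with some further subunits, an inhibitor of ATP synthase and the ADP/ATP carriers. Of these 35 were measured and none passed 1.5-fold in either direction, against 7.38% of all measured genes and 1.63% of the brightest class. Their median was 0.11. Coa4 and Coa3, complex IV assembly factors, had the highest differences. Coa3 had 5.69 on the KPC-exo array and 5.23 on the MPDC-exo array, a difference of 0.47. Coa4 had 1.32 on the KPC-exo array and 0.75 on the MPDC-exo array, a difference of 0.57, which its other probe, at 0.11, did not match in size. Sdhaf2, which helps to attach the flavin of Sdha, had 2.22 on the KPC-exo array and 1.87 on the MPDC-exo array, a difference of 0.35. At the other end, Lrpprc, which stabilises mitochondrial mRNAs, had 3.38 on the KPC-exo array and 3.69 on the MPDC-exo array, and both of its probes were lower on the KPC-exo array by percentile centring (-0.31 and -0.36). Coa5 had a difference of -0.30, while Surf1 and Bcs1l, assembly factors of complexes IV and III, were both at 0.23. The 2 Surf1 probes gave 0.23 and 0.24, but the 3 measured Bcs1l probes ran from -0.13 to 0.34. Ttc19, a further assembly factor of complex III, was at -0.08, with its measured probes between -0.08 and 1.24.

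The mitochondrial genome encodes core subunits of complexes III and IV and membrane subunits of complex V, and 4 of its mRNAs, added after the values were seen, had 1 probe each. COX1, the core of complex IV, had 7.58 on the KPC-exo array and 7.88 on the MPDC-exo array, a difference of -0.30. COX2, which receives electrons from cytochrome c, had 7.53 on the KPC-exo array and 7.88 on the MPDC-exo array, a difference of -0.35. CYTB, the core of complex III, had 7.48 on the KPC-exo array and 7.66 on the MPDC-exo array, a difference of -0.17. These 3 and ATP8 of complex V, at -0.55, all lay below the all-gene median. None reached 1.5-fold, and the nuclear-encoded members had their median at 0.02. The 5th percentile of the brightest 25% of measured genes was -0.35. Other mRNAs of this genome are not described here, and the contrast with the nuclear genes was not tested.

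The promoters of the members were searched for motifs of factors known to control respiratory genes, in windows from 250 bases before to 50 after the start of each gene (RefSeq, GRCm38.p6), on both strands. Of the 60 genes 46 had a window. A gene was counted if at least 1 of its windows held the motif. The palindromic G and C rich NRF1 motif was found in 11 of them (23.9%), against 5.19% of all 27025 genes with a window and 21.4% of such Nduf genes. The ETS motif CCGGAAGT was found in 8 (17.4%), against 4.31% of all such genes and 2.38% of the Nduf genes. The YY1 motif AANATGGCG was found in 5 (10.9%), against 2.76% of all such genes and 19.0% of the Nduf genes. The measured members with the NRF1 motif, such as Uqcrc1, Sdha and Cox6a1, had a median difference of 0.02, and those without it 0.02. With and without the ETS motif the medians were 0.01 and 0.02, and with and without the YY1 motif 0.02 and 0.02. A match describes the letters in the window and not binding.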

How the data were processed

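Total RNA of 2 cultures was measured on 1 array each, grouped by the treatment in the labels. The labels' protocols describe linear amplification of the RNA and labelling with Cy3 for 1-colour hybridisation. Agilent Feature Extraction 10.7.1.1 read the spots, per the submitters' processing notes. The deposited scanner files hold intensity after background subtraction, on a linear scale and with no normalization across arrays, per the file headers. Each holds 59305 non-control spots of 56605 probes of 60 bases, and both arrays share a slide and a scan. The headers place the probes on mm9. The deposited value table holds log2 values, and how the authors made them is not given. Its columns have a median of 4.88 each and correlate at 1.00 with the scanner values across probes, so its scale is log2 and its direction that of the scanner signal; centring per gene is not seen. It served as an alternative.

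Flagged spots (166 on the KPC-exo array, 102 on the MPDC-exo array) were left out, no spot was saturated, repeat spots were averaged per probe, and each array was centred on its 75th percentile. Detection reached 47.6% of probes with KPC-exo and 45.9% with MPDC-exo. A gene is represented by its brightest probe. The limit of 1.5-fold is a description, not a test, and 2 arrays limit the precision. Names of other genes were updated where the accession of a probe matched RefSeq (32994 probes, GRCm38.p6), while members keep the names in the files. The text names, per complex, the 4 highest and 4 lowest differences, the isoform sets, the Sdh genes, members seen on 1 array only and members whose probes disagree; other members are named to account for all. Members, lists and alternatives were chosen with earlier results of these data known. Simulated data, with noise well below the disagreement between probes here, served only to check the code of the counting and medians. Python 3.11.15, numpy 2.4.6, pandas 2.3.3, matplotlib 3.10.9, R 4.3.3 and limma 3.58.1 (normexp, quantile, cyclic loess) were used.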

Additional observations from a re-analysis of the deposited data

How the results depend on the processing

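Each value was recomputed under up to 16 alternatives; of 200 recomputed medians and counts, 166 stayed close to the reported value (medians within 0.1, counts within 1.5 times). Centring on spike-in probes added 1.00 to all differences: medians became 1.02 for all members, 1.04 for complex II, 0.91 and 1.28 for complex III subunits and assembly factors, 1.02 and 1.01 for those of complex IV, 1.02 for complex V, 1.06 for Nduf genes, 1.11 for Mrpl and Mrps genes and 1.06 for all genes. It put 57 members and 15788 genes at least 1.5-fold higher and 0 members and 57 genes lower, and Cox17 at 0.20. Averaging probes gave complex II 0.18 and left 0 members lower. With only probes that have a RefSeq accession, an alternative chosen after seeing the data, 0 members were lower, and 264 genes were higher and 345 lower. Normexp gave 1 member (Sdhc) and 269 genes higher, and leaving out spots with a flagged background also gave 1 (Sdhc). With no filter the median of all genes was -0.15, with 3028 genes higher and 2650 lower; with a stricter filter 236 were higher and 322 lower. At a log2 limit of 0.32, 4 members and 2583 genes were higher and 3 members and 1718 genes lower; at 2-fold 123 genes were higher, and 0 members and 201 genes lower. Other causes were not tested. No paired analysis was possible because each group has 1 array. Signal over background limits Cox7b2 and Cox8c, and the isoform contrasts of the dim Cox4i2 and Cox6b2 became 0.04 and -0.12 with normexp. Variation between cultures is not measured.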
